A study of Mus musculus with 36 samples.

Results

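TEC is the biotype given in the mouse gene annotation to regions awaiting experimental proof, which carry evidence of transcription, often a polyadenylated cDNA, but no established gene structure. Rows of the count table with this biotype were kept where their mean raw count over all 36 libraries was 10 or more. This left 238 of 3085 TEC rows, in a table of 53421 rows, and 1188 TEC rows had no read in any library. The members were chosen by their measured level, so the level itself is a description. Just inside the threshold lay Gm37303 (mean count 10.056) and Gm45737 (10.0), and just outside it lay Gm42872 (9.972) and Gm45242 (9.944).

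The cells were a conditionally immortalised, wild-type mouse chondrocyte line, taken out of the conditions that keep it dividing before the experiment. Every library came from this 1 line. They were transfected with a non-targeting siRNA pool (NT) or a pool against Ift88 (IFT88siRNA), a subunit of the intraflagellar transport machinery that builds the primary cilium. Labels give 50 nM siRNA and the methods 10 nM. Cells then had medium alone (0 h) or IL-1β at 10 ng/ml, for 24 h at the longest and for 1, 2, 4 or 8 h otherwise, with 3 libraries in each of the 12 conditions. Nothing states that the 3 libraries of a condition came from separate cultures, so p-values measure the spread between these libraries, which may be technical.

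A transcript annotated inside an intron can be a separate RNA, a retained or alternatively ended piece of its host, or unspliced host RNA. IL-1β acts through its receptor to activate NF-κB and the MAP kinases, which switch genes on within the hour, so unspliced RNA of a responding gene commonly moves before its spliced mRNA. Reads were counted with featureCounts at its default settings, which do not use strand, and libraries of polyadenylated RNA also hold some unspliced RNA. Reads in an intronic member therefore cannot be told apart from unspliced RNA of the host, nor reads of one strand from those of the other.

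The letters of a few members show what such regions look like. Coordinates are GRCm38 throughout, the miRNA and promoter sequences are from RefSeq (GRCm38.p6), and the ends of members are from GENCODE M21 transcripts. Gm37795 is shown because it begins 2 bases after miR-34a-3p, inside the miR-34a hairpin. Among the members searched, it was the only one with its start within 200 bases of the end of a mature miRNA. Mature miRNAs lying elsewhere along a member were not searched for. Capitals mark the seeds (bases 2 to 8) of the miRNAs, and in Gm37795 the 17 bases shared with the hairpin.
mmu-miR-34a-5p, chr4:150068473-150068494, plus strand: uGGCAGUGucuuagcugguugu
mmu-miR-34a-3p, chr4:150068517-150068537, plus strand: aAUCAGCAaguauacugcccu
Gm37795, first 60 bases, chr4:150068539-150068598, plus strand: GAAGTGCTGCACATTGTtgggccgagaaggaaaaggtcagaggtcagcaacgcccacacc

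The last 40 bases of 6 members are shown for the polyadenylation signal, which lies just upstream of the cleavage site of most mRNAs. The letters searched were AATAAA and ATTAAA on the transcript strand, in capitals where found. Gm42462, Gm45221 and Gm38357 lie in introns of the genes named with them below, Gm43197 in an intron of the processed transcript Gm20559, and Gm42547 and Gm42141 outside other genes.
Gm42462 (Fbxl5), chr5:43752909-43752948, minus strand: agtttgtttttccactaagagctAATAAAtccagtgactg
Gm43197, chr6:3336772-3336811, minus strand: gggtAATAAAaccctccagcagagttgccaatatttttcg
Gm42547, chr6:28211008-28211047, minus strand: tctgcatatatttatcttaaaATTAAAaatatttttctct
Gm42141, chr5:105497602-105497641, plus strand: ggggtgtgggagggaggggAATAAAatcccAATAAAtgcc
Gm45221 (Picalm), chr7:90188159-90188198, plus strand: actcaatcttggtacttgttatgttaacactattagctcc
Gm38357 (Noct), chr3:51234341-51234380, plus strand: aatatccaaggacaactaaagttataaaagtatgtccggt

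A signal was found in the last 40 bases of 111 of the 237 members with a transcript (46.8%). The share was 53.4% for lincRNA genes, 51.6% for antisense genes and 72.0% for protein-coding genes of the same minimum count. A match is a description of the letters and no evidence of cleavage.

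Promoter sequence was available for 14 members, in 17 entries. The AP-1-like letters TGANTCA, searched on both strands, were in 2 of the 17 entries, against 7.81% of all 32851 promoters. An NF-κB motif was in 0 of the 17 entries, against 8.46% of all promoters, which says only that the letters are not in these windows. The other match was in the entry of Gm6653. The 300 bases around a RefSeq start 48 bases from Gm42141, a member that rose at 4 h (below), are shown with the matching letters in capitals. The match lies after that start. The other Gm42141 entry had no match, and neither entry of Gm35048, also higher at 4 h (below), had one.
Gm42141 promoter, chr5:105495172-105495471, plus strand: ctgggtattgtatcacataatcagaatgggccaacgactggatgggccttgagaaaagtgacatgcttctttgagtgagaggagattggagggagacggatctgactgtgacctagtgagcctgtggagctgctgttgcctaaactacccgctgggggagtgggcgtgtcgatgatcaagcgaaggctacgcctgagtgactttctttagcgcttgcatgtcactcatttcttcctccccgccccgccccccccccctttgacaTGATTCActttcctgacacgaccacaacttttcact

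Members were mostly short, unspliced models beside or inside other genes. Of the 237 found in GENCODE M21 (Gm45884 had no entry), 230 had a single exon (97.0%), against 13.1% of lincRNA, 12.2% of antisense and 2.4% of protein-coding genes. Their median exonic length was 2275 bases (313 to 30942) and their median GC content was 44.0%, against 47.3%, 50.3% and 49.8% in these classes. By position, 72 shared exon bases with another gene (by default featureCounts leaves out reads that overlap exons of more than 1 gene), 86 lay in an intron of a gene on the same strand, and 21 lay in an intron of a gene on the opposite strand. A further 30 lay within 10 kb downstream of a gene on their own strand, 27 were within 10 kb of a gene in another arrangement, and 1, Gm35048, had no other gene within 10 kb. The gene that gave a member its position is called its partner, and where several did, the one with the highest mean count. A partner need not be the nearest gene, and other TEC genes were left out of this search. There were 236 members with a partner, protein-coding for 209 of them. Of the 222 distinct partners, 197 were protein-coding.

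Most members were weakly expressed. The median mean count was 22.9, and 46 members had 50 or more and 9 had 200 or more. AC160637.1, which shares 767 of its 3887 exonic bases with Pkm (pyruvate kinase), had the highest mean count (1214). Per length it stood at 12.5 CPM (counts scaled to a common library size) per kb, followed by Gm37795 with 9.35 and Gm44250, which begins 366 bases downstream of the lipid-hydrolysing enzyme gene Pon3, with 8.75. Above all 3 stood Gm37416, with 30.7 CPM per kb on 318 bases, in an intron of Malrd1 on the opposite strand and named after its values were seen. Malrd1 itself had a mean of 0.36 counts.

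Libraries held 19337022 to 38304127 counts, of which 7836 to 19641, or 0.03582 to 0.06381%, were on the members. Ift88 ran from 5.68 to 10.3 CPM in NT and from 1.41 to 3.14 in IFT88siRNA, without overlap. Chondrocyte markers were weak as a sum (39.3 to 145 CPM over 8 genes, 4 of them above a mean of 1 CPM). Sox9 stood at 12.4 to 77.8 CPM, Col2a1 at 4.16 to 21.6 CPM, and Acan, the gene of the cartilage proteoglycan aggrecan, at 0.0245 to 0.709 CPM. Fibroblast markers were strong (7850 to 16300 CPM over 8 genes, all above 1). Leukocyte (4.97 to 8.65 CPM over 8 genes), endothelial (0.803 to 2.54 over 4) and epithelial (0.641 to 20.1 over 4) markers were low, with Ptprc, Pecam1 and Epcam below 0.5 CPM in each library. Their part in the results was not tested. Libraries NT 2 h replicate 2, IFT88siRNA 4 h replicate 2 and IFT88siRNA 8 h replicate 3 stood furthest from their conditions. In bulk RNA, fewer cells with a transcript and less of it per cell cannot be told apart.

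IL-1β changed many members in NT cells, and falls outnumbered rises at most time points. A call required an adjusted p under 0.05 in edgeR's quasi-likelihood test, over all genes tested, and a change of more than 1.5-fold. Over the time course 139 of the 238 members were called (58.4%), against 50.0% of all genes tested and 65.8% of the other genes with mean counts of 10 to 100. The share was 63.2% of lincRNA genes, 58.6% of antisense genes and 49.4% of protein-coding genes. The members' share lay between those of protein-coding and lincRNA genes.

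The balance of directions moved with time. At 1 h 35 members rose and 46 fell, where 9.22% of all genes tested rose and 9.45% fell. At 2 h 36 rose and 50 fell (13.0% and 14.3% of all genes). At 4 h 26 rose and 23 fell (16.3% and 12.4%). At 8 h 17 rose and 25 fell (11.8% and 7.87%). At 24 h 5 rose and 32 fell (6.61% and 9.71%). The median log2 fold change of the members was -0.05, -0.15, -0.04, -0.20 and -0.30 in this order, and that of all genes stayed between -0.02 and -0.01. These 5 comparisons share the 0 h libraries. A mean count under 10 in the NT 0 h libraries was found in 24 members, which were kept through other libraries, and 17 of the 66 members that rose at any time were among them. Without replicate 1, 12 members were called at 24 h in place of 37. Of the 139 members called over time, 40 had their largest change at 1 h, 52 at 2 h, 26 at 4 h, 11 at 8 h and 10 at 24 h.

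**Figure D1:**
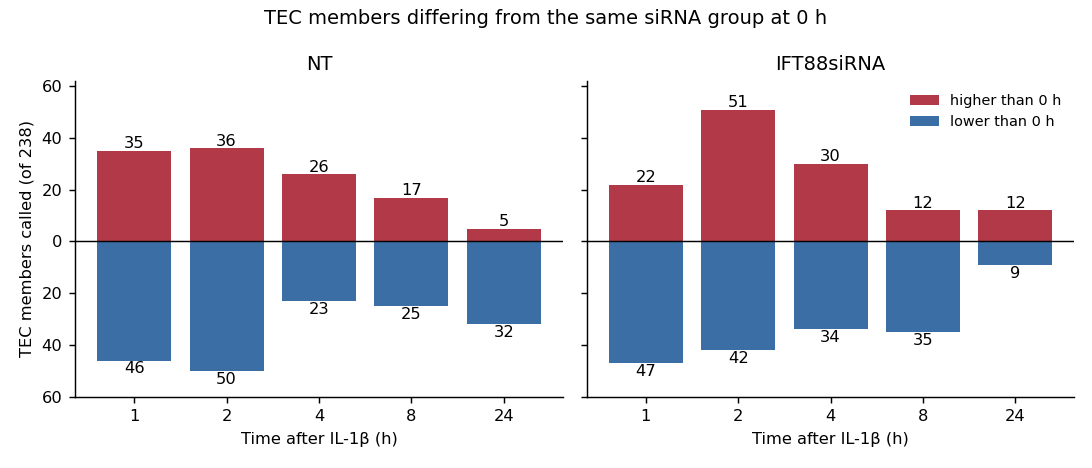
Members called against 0 h at each time of IL-1β (h, evenly spaced categories), as the number higher and the number lower, in NT and IFT88siRNA cells. In NT the counts of higher and lower members were 35 and 46 at 1 h and 5 and 32 at 24 h.

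A first set of named members had risen by 1 h. Gm45221 lies in an intron of Picalm (chr7:90185927-90188198), which encodes a clathrin assembly protein of endocytosis. It read 1.09, 0.86 and 0.794 CPM in the 3 NT libraries at 0 h, 4.52, 4.10 and 4.11 at 1 h and 3.52, 3.29 and 4.25 at 2 h. All 1 h and 2 h values were above those at 0 h, and by 4 h (0.717, 1.41 and 1.71) the groups overlapped. The log2 fold change was 2.20 ± 0.251 (SE, n = 3) at 1 h (edgeR, adjusted p = 8.19e-08). Picalm itself changed by 0.37 ± 0.0391 at 1 h, below the fold threshold, and by 1.1 ± 0.0392 at 2 h.

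Gm37309, in an intron of Pdcl3, a phosducin-like protein that assists chaperonins, rose within the first hour and fell back by the next measured time. It read 1.68, 2.13 and 1.54 CPM at 0 h, 6.10, 7.06 and 6.31 at 1 h and 2.29, 1.02 and 3.41 at 2 h. The 1 h libraries lay above all others and the 2 h libraries overlapped those at 0 h. The log2 fold changes were 1.86 ± 0.262 at 1 h (edgeR, adjusted p = 2.15e-06) and 0.32 ± 0.307 at 2 h. Pdcl3 had 0.55 ± 0.0564 at 1 h and 0.82 ± 0.0559 at 2 h, the second past the fold threshold.

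Gm37352 lies 7629 bases from Zswim4, on the other strand. It rose from 1.88, 1.43 and 1.41 CPM to 5.42, 6.28 and 7.15 at 1 h, again without overlap, a log2 fold change of 1.99 ± 0.266 (edgeR, adjusted p = 9.7e-07). Zswim4 rose by 1.72 ± 0.0538 at 1 h and by 2.56 ± 0.0543 at 2 h. Gm42928, on the strand opposite Cnn3, the gene of an actin-binding calponin, shares 538 of its 3339 bases with Cnn3 exons. It read 1.63, 1.31 and 1.28 CPM at 0 h and 6.05, 3.53 and 4.70 at 1 h, with no overlap. Its course followed the direction of Cnn3 at each time: the member had 1.74, 1.58, 0.61, -0.20 and -0.73, and Cnn3 had 0.84, 1.15, 0.75, -0.12 and -0.68 on the log2 scale.

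Gm38357, in an intron of Noct (nocturnin, a circadian phosphatase), had the largest rise of these at 2 h. It read 0.293, 0.409 and 0.221 CPM at 0 h and 3.41, 8.26 and 4.65 at 2 h, so the lowest 2 h library was far above every 0 h library. The log2 fold change was 4.10 ± 0.389 (edgeR, adjusted p = 2.03e-09), and 3.38, 3.23 and 1.72 at 1, 4 and 8 h also passed. The mean count of Gm38357 in the NT 0 h libraries was under the minimum set for members, which it reached through libraries after 0 h. A rise from 0 h was thus favoured by its choice, and its p-value is to be read with that limit. Noct rose by 3.88, 3.71, 2.93 and 1.41 at 1, 2, 4 and 8 h, so that member and host kept close to each other.

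Other members had their largest rise at 4 h. 2310043P16Rik (chr7:34389732-34393612) lies on the strand opposite Lsm14a, a component of RNA processing bodies, and shares 110 of its 3881 bases with other exons. It read 2.51, 2.70 and 2.12 CPM at 0 h and 2.52, 2.92 and 2.20 at 1 h. The values were 4.99, 3.62 and 4.96 at 2 h and 19.5, 16.3 and 19 at 4 h. Values at 0 and 1 h overlapped and those at 2 h lay above both (log2 fold change 0.87 from 0 h). Those at 4 h stood apart, and at 24 h the values were back among those at 0 h (2.53, 2.68 and 2.05). The log2 fold change at 4 h was 2.92 ± 0.14 (edgeR, adjusted p = 3.39e-15), where Lsm14a had 0.40 ± 0.044, below the fold threshold.

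Gm42141 (chr5:105495470-105497641), whose promoter is printed above, lies 5396 bases downstream of Lrrc8b, a subunit of volume-regulated anion channels. It read 2.09, 1.96 and 1.81 CPM at 0 h, 1.83, 1.58 and 2.22 at 2 h and 7.83, 6.52 and 7.97 at 4 h. The groups at 0 and 2 h overlapped and the 4 h libraries lay above both. The change at 4 h was 1.95 ± 0.15 (edgeR, adjusted p = 3.49e-11). Lrrc8b was called at 2 h (0.84 ± 0.0547) and had -0.12 ± 0.0569 at 4 h.

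Gm43196 and Gm43197 are neighbours at the Gm20559 locus on chromosome 6, a processed transcript with no known protein. Gm43197 read 11.7, 10.3 and 9.66 CPM at 0 h, 6.26, 7.24 and 6.75 at 1 h and 31.5, 48.1 and 42.3 at 4 h, a dip followed by a rise with no overlap at either step. Its log2 fold changes were -0.65 ± 0.228 at 1 h (edgeR, adjusted p = 0.0208) and 1.97 ± 0.183 at 4 h (adjusted p = 1.08e-09). Gm43196 rose by 2.06 ± 0.237 and Gm20559 by 2.09 ± 0.124 at 4 h, so the 3 annotated transcripts of the locus were higher together.

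Gm42462 (chr5:43752909-43754271), in an intron of Fbxl5, the iron-sensing subunit of a ubiquitin ligase, climbed for 4 h. It read 0.67, 0.368 and 0.441 CPM at 0 h, 1.37, 1.40 and 1.22 at 1 h, 2.65, 2.64 and 2.97 at 2 h and 3.14, 4.70 and 3.57 at 4 h. Each of these groups lay wholly above the one before. The changes from 0 h were 1.42 ± 0.295, 2.46 ± 0.257 and 2.97 ± 0.245, all past the thresholds, where Fbxl5 had -0.12 ± 0.0503, 0.70 ± 0.0483 and 2.24 ± 0.0475. At 8 and 24 h the member had 1.73 and 0.80 and Fbxl5 had 1.6 and 1.26.

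**Figure D2:**
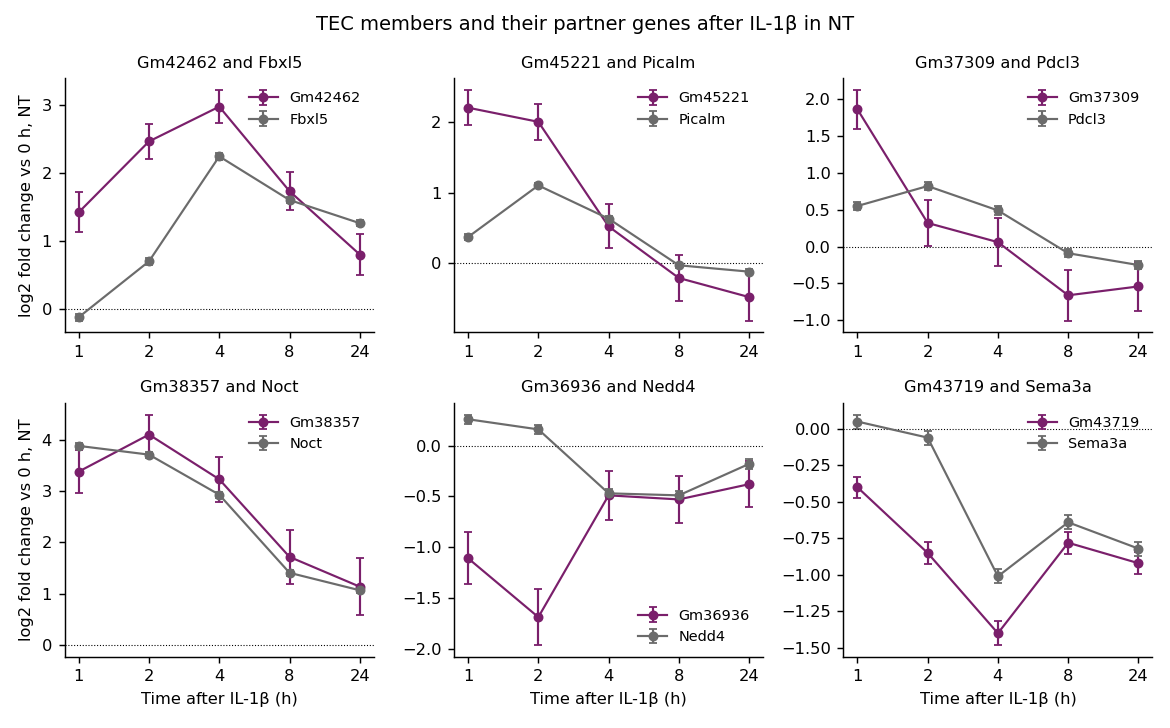
Log2 fold change against 0 h in NT (y axis) by time of IL-1β (h, evenly spaced categories) for members and their partner genes, with bars for the SE of the fit. Gm45221 stood at 2.20 at 1 h when Picalm stood at 0.37, and Gm42462 at 1.42 when Fbxl5 stood at -0.12.

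Gm45838 and Gm42778 also rose at 4 h. Gm45838 shares 101 exonic bases with Stard5, which encodes a lipid transfer protein, and rose by 1.21 ± 0.229 at 4 h and 1.08 ± 0.226 at 8 h, where Stard5 rose by 1.62 and 1.18. Gm42778, in an intron of Ttc28, rose by 1.33 ± 0.16 at 4 h and fell by 0.89 on the log2 scale at 24 h, where Ttc28 had 0.97 and -0.56. The first of these Ttc28 values passed and the second did not.

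Gm35048 (chr1:90520496-90523297) was singled out after its values were seen, as the 1 member with no other gene nearby. RefSeq places it in a long non-coding RNA at chr1:90506726-90524902. It read 0.0419, 0.0409 and 0.132 CPM at 0 h, 0.306, 0.232 and 0.31 at 2 h and 2.87, 2.23 and 3.26 at 4 h, so that a barely detected region became readily detected without overlap. In reads these were 5 in all at 0 h and 164 at 4 h, a ratio of 39.2 once scaled for depth (exact 95% interval 16.5 to 122, counting error only). At 8 and 24 h the ratios were 27.9 (11.7 to 87.3) and 22.2 (9.26 to 69.5). In IFT88siRNA cells it had 1 read at 0 h and 158 at 4 h. Its mean count reached 10 only through the libraries from 4 h on, so a rise from 0 h was built into its choice and is given as a description.

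Among the falls, Gm37795 at miR-34a was called at every time. It read 55.3, 40.4 and 49.0 CPM at 0 h, 17.3, 14.6 and 17.4 at 1 h and 15.8, 4.83 and 19.9 at 2 h. Both later groups lay below all 0 h values, and the 24 h libraries (14.9, 25.2 and 46.0) spread up into the 0 h range. The log2 fold changes were -1.56 ± 0.326 at 1 h (edgeR, adjusted p = 0.000289), -1.84 ± 0.333 at 2 h (4.09e-05), -0.95 at 4 h, -1.40 at 8 h and -0.79 at 24 h, all called. The call at 4 h was lost without replicate 1 (-0.69) and with DESeq2. miR-34a itself is a p53 target that represses cell cycle genes. It is not measured here, since the hairpin had a mean of 0.25 counts in these libraries of long RNA.

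Gm42547 (chr6:28211008-28214805) lies 750 bases from the antisense gene 6530409C15Rik, on the other strand. It read 6.91, 7.29 and 7.90 CPM at 0 h, 2.58, 3.05 and 2.99 at 1 h, 1.22, 1.11 and 1.11 at 2 h and 7.61, 7.25 and 6.47 at 4 h. The 2 h libraries were the lowest and agreed closely, and the 4 h libraries overlapped those at 0 h. The log2 fold change was -2.69 ± 0.135 at 2 h (edgeR, adjusted p = 1.28e-14) and -0.02 ± 0.0972 at 4 h.

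Gm44168, in an intron of the antisense gene Gm5577, read 5.74, 5.73 and 5.74 CPM at 0 h and 1.84, 2.18 and 2.06 at 1 h. It stayed below its 0 h values at every later time, with log2 fold changes of -1.50, -1.69, -1.23 and -1.21 at 1, 2, 4 and 8 h that all passed. Gm5577 had -1.39, -1.45, -1.16 and -0.98. Gm36948, on the strand opposite the antisense gene Gm27231, read 3.56, 2.66 and 3.57 CPM at 0 h and 0.51, 0.139 and 0.399 at 2 h, a change of -3.23 ± 0.426 (edgeR, adjusted p = 4.9e-07). It shares 551 of its 3247 bases with other exons.

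**Figure D3:**
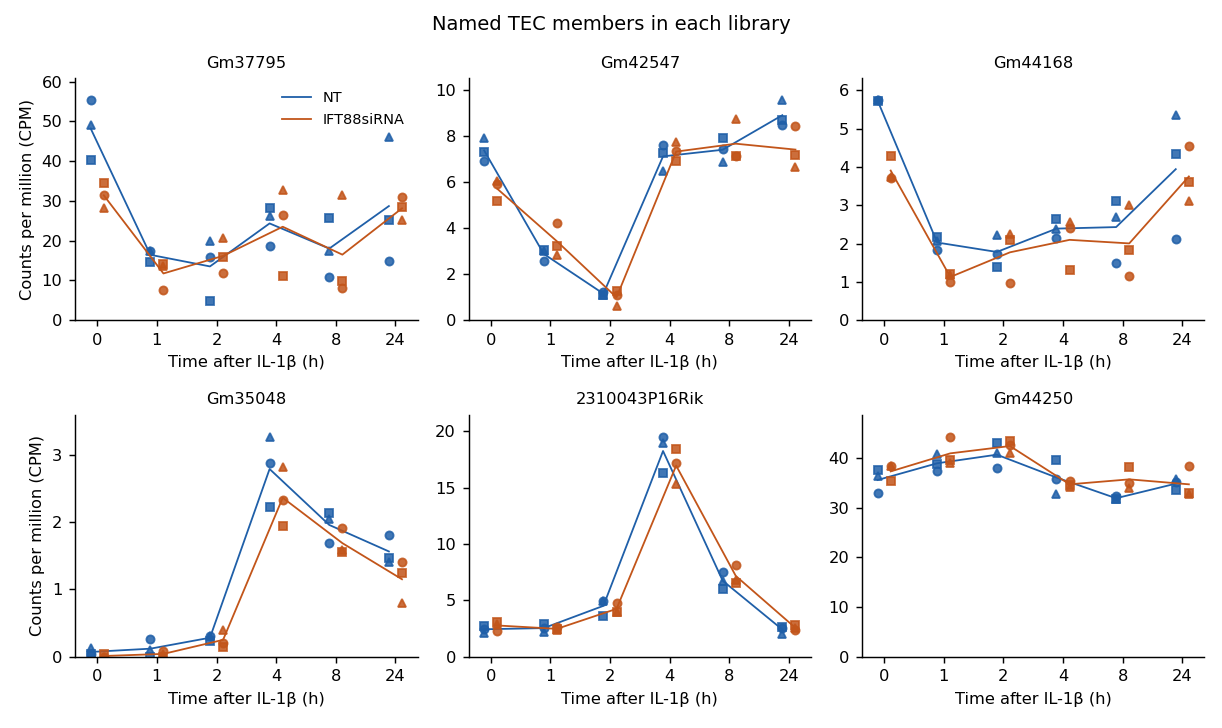
CPM of named members in each library (y axis) by time of IL-1β (h, evenly spaced categories), for NT and IFT88siRNA, with circles, squares and triangles for replicates 1, 2 and 3 and lines for the means. Gm42547 fell to 1.11 to 1.22 CPM at 2 h in NT, and 2310043P16Rik reached 16.3 to 19.5 at 4 h.

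Members within 1 host gene could move apart. Gm36936 and Gm7265 both lie in introns of Nedd4, a ubiquitin ligase, at chr9:72728140-72730888 and chr9:72691549-72695050. Gm36936 read 4.98, 4.30 and 4.06 CPM at 0 h and 1.73, 0.789 and 1.64 at 2 h, all lower. Gm7265 read 3.48, 3.64 and 3.66 at 0 h and 7.13, 6.12 and 5.58 at 2 h, all higher. The log2 fold changes at 2 h were -1.69 ± 0.277 (edgeR, adjusted p = 1.1e-05) and 0.79 ± 0.125 (6.9e-06), with Nedd4 at 0.16 ± 0.0456. At 24 h Gm7265 had fallen by 1.29 on the log2 scale, where Nedd4 had -0.18.

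Gm43719 lies 1470 bases downstream of Sema3a, which encodes a secreted axon guidance protein. It read 21.9, 22.7 and 23.6 CPM at 0 h, 12, 13.5 and 12.5 at 2 h and 8.22, 8.94 and 8.07 at 4 h, each group below the one before. The log2 fold change was -0.85 ± 0.0762 at 2 h and -1.40 ± 0.0821 at 4 h (edgeR, adjusted p = 1.74e-13). Sema3a had -0.06 ± 0.0476 at 2 h and -1.01 ± 0.0484 at 4 h. Gm10252, opposite the ferritin light chain gene Ftl1 and with 355 of 832 bases in other exons, fell by 1.1 on the log2 scale at 8 h (SE 0.201), where Ftl1 had -0.12.

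The abundant members were not all responsive. Gm44250 lay between 31.7 and 44.2 CPM in each of the 36 libraries and was called in no comparison, with log2 fold changes from -0.14 to 0.18 in NT. AC160637.1 read 54.9, 46.5 and 52.5 CPM at 0 h and 35.6, 19.9 and 43.7 at 2 h, lower without overlap (-0.64 ± 0.243, edgeR, adjusted p = 0.0264). It was called higher at 24 h in NT (0.60 ± 0.224, edgeR, adjusted p = 0.0317), but its 24 h values of 50.1, 73.0 and 117 CPM overlapped those at 0 h, and the call was lost with DESeq2. Pkm rose by 1.09 ± 0.0406 at this time.

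Changes of members ran alongside those of their partner genes to a degree that varied with position. Across 86 pairs with the member in an intron of the same strand, Pearson's r between the log2 fold changes of member and host was 0.63, 0.69, 0.81, 0.72 and 0.56 from 1 h to 24 h in order. In 19 pairs with the host on the opposite strand it was 0.50, -0.08, 0.09, 0.06 and 0.25. Members near a gene in another arrangement (26 pairs) had 0.76, 0.81, 0.67, 0.41 and 0.45, and those sharing exon bases (70 pairs) 0.28, 0.55, 0.48, 0.46 and 0.65. Downstream members (25 pairs) had -0.02, 0.42, 0.59, 0.48 and 0.47. These correlations are across genes, share the same libraries including those at 0 h, and are given as descriptions, and the difference between the classes was not tested.

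Of the 86 same-strand intronic pairs, 30 had both member and host called over time, and in 28 of them the largest changes had the same sign. Among those 28 the member's largest change came earlier in 15, at the same time in 7 and later in 6. In a further 26 pairs the member was called and the host was not. Of these 86 members 56 were called, and of all genes tested 50.0%, so the counts of 30 and 26 alone do not show a link. Counts of members were much lower than those of hosts and their SEs correspondingly larger, and the order of the times was not tested. At 2 h 17 same-strand intronic members rose and 19 fell, and of the 21 opposite-strand ones 0 rose and 5 fell. No member had a partner in a list of 52 IL-1 and NF-κB target genes, of which 42 rose at 1 h (median log2 fold change 2.85) and 48 at 4 h (2.58).

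**Figure D4:**
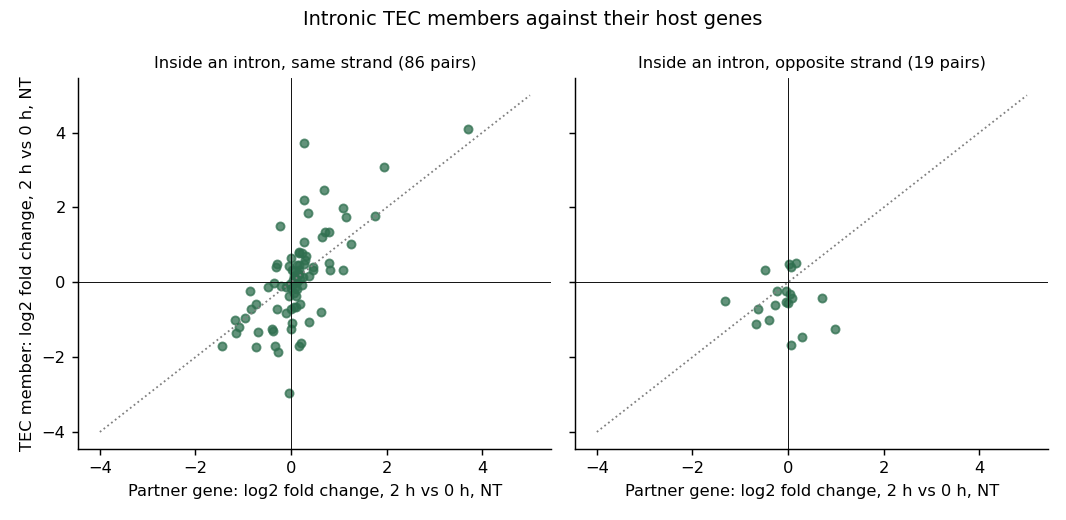
Log2 fold change at 2 h against 0 h in NT of each member (y axis) against that of its partner gene (x axis), by position of the member. Same-strand intronic pairs spread along the diagonal (Pearson's r 0.69, 86 pairs), and opposite-strand intronic pairs did not (-0.08, 19 pairs).

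In IFT88siRNA cells the test over time called 154 members (64.7%). The share was 48.2% of all genes tested and 64.3% of the other genes with mean counts of 10 to 100. It was 64.7% of lincRNA, 58.1% of antisense and 47.9% of protein-coding genes. Of the members, 115 were called in both arms, which is 82.7% of the NT calls and 74.7% of the IFT88siRNA calls. Of the members called in NT, the fold change in IFT88siRNA had the same sign for 76 of 81 at 1 h, 85 of 86 at 2 h, 49 of 49 at 4 h, 41 of 42 at 8 h and 34 of 37 at 24 h. The arms share no library. Overlap and sign were not counted over all genes, of which 50.0% were called in NT. They are therefore not shown to be particular to the members. In IFT88siRNA 22 members rose and 47 fell at 1 h (6.82% and 8.25% of all genes tested), and 51 rose and 42 fell at 2 h (12.4% and 13.2%). At 4 h 30 rose and 34 fell (16% and 13.3%), at 8 h 12 and 35 (10.5% and 7.11%), and at 24 h 12 and 9 (6.36% and 7.87%). Rises thus outnumbered falls at 2 and 24 h, where falls outnumbered rises in NT, a contrast in counts that was not itself tested. 2310043P16Rik read 2.33, 3.09 and 2.92 CPM at 0 h and 17.2, 18.4 and 15.3 at 4 h in IFT88siRNA, a change of 2.61 ± 0.119 beside 2.92 ± 0.14 in NT.

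The test of a different response, over all 5 times together, called 0 of 238 members, against 1.2% of all genes tested. By edgeR 15 members had an unadjusted p under 0.05, and DESeq2 called 0. Without IFT88siRNA 8 h replicate 3 there were 2 calls and without the 3 libraries that stood apart there were 8, so the count rests on those libraries.

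Between the arms themselves, the members called before and 1 h after IL-1β were all lower in IFT88siRNA. At 0 h 223 members had enough counts to be tested, and 13 were lower and 0 higher (5.83%), where 1.56% of all genes tested were lower and 0.674% higher, and 5.64% of other genes with mean counts of 10 to 100 were called in either direction. The members' share at 0 h was near that of these other genes. Of lincRNA genes 6.58% were called at 0 h, of antisense genes 4.36% and of protein-coding genes 1.78%. At 1 h 206 members were tested, and 34 were lower and 0 higher (16.5%). At that time 2.47% of all genes tested were lower and 0.182% higher, and 6.80% of other genes of 10 to 100 counts, 8.97% of lincRNA, 12% of antisense and 1.84% of protein-coding genes were called. With no filter on low counts, so that all 238 were tested, 10 were lower and 1 higher at 0 h and 34 were lower at 1 h. The counts moved with the libraries, to 3 at 0 h without replicate 3 and to 10 and 11 at 1 h without replicates 1 and 3. They also depended on the tool, since DESeq2 called 5 of 152 with an adjusted p at 0 h and 16 of 117 at 1 h, and limma on log2(TPM + 1) called 1 at each.

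By position, 18 of 79 same-strand intronic members were lower at 1 h (median log2 fold change -0.50), as were 10 of 65 that share exon bases (-0.22), 2 of 15 in an intron of the opposite strand, 1 of 26 downstream and 3 of 20 nearby. The hosts of the same-strand intronic members had a median of 0.00 over 78 pairs. Among the partners of the 34 members called at 1 h, 1 was called (Gm5577, the host of Gm44168), and their log2 fold changes ran from -0.602 to 0.221 with a median of -0.07, against -0.84 for the members. At 0 h 0 of the 11 partners tested were called (median -0.05, members -0.92). The called members had passed a fold threshold and their partners were not so chosen, so a gap between these medians was built in. Over all pairs tested, called or not, the medians at 1 h were -0.34 for members and -0.02 for partners (196 pairs). At 0 h they were -0.19 and -0.02 (213 pairs).

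Gm45221 in Picalm was among the lower members at 1 h. It read 4.52, 4.10 and 4.11 CPM in NT and 2.17, 2.65 and 2.68 in IFT88siRNA, all lower. At 0 h (1.09, 0.86 and 0.794 against 0.777, 0.842 and 0.879) and at 2 h the arms overlapped. The difference at 1 h was -0.80 ± 0.148 on the log2 scale (edgeR, adjusted p = 0.00151), where Picalm had -0.06 ± 0.0383. The interaction of arm and time at 1 h was -0.65 (edgeR, adjusted p = 0.587), so the rise itself was not shown to differ.

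Gm42979, in an intron of the splicing regulator gene Sfswap, read 4.05, 4.49 and 5.04 CPM in NT and 1.61, 3.29 and 2.55 in IFT88siRNA at 1 h, without overlap. The difference was -0.89 ± 0.194 (edgeR, adjusted p = 0.00471), and Sfswap had -0.18 ± 0.0512. Gm44168 had the same difference, -0.89 ± 0.202. Gm37352 had -0.69 ± 0.166 and Gm43196 -1.38 ± 0.251, both called, and AC160637.1 -0.66 ± 0.116 with Pkm at 0.01. The calls of Gm37352 and Gm44168 were lost without replicate 1, and that of AC160637.1 without replicate 1 or 3. The NT libraries at 0 and 1 h enter these comparisons as well as those over time.

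Gm44013, 240 bases from Aebp2, a cofactor of Polycomb repressive complex 2, was lower at both times. At 0 h it read 2.18, 2.82 and 1.72 CPM in NT and 1.18, 1.23 and 1.16 in IFT88siRNA, without overlap (-0.92 ± 0.201, edgeR, adjusted p = 0.00227). At 1 h the arms overlapped (2.31, 3.58 and 4.01 against 1.34, 2.54 and 1.97), with -0.79 ± 0.226. Gm37795 at miR-34a read 31.6, 34.5 and 28.1 CPM in IFT88siRNA at 0 h, all below the NT values given above (-0.62 ± 0.0829, edgeR, adjusted p = 1.17e-05). Gm36948 was also lower at 0 h (-0.78 ± 0.173). The call of Gm37795 was lost without replicate 1 or 3, where it had -0.52 and -0.54, and that of Gm36948 and the 1 h call of Gm44013 without replicate 3.

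At the later times single members were called: 1 of 208 lower at 2 h, 1 of 209 lower at 4 h, 1 of 209 lower at 8 h and 1 of 224 higher at 24 h. Of all genes tested, 0.462% were lower and 0.0339% higher at 2 h, 0.399% and 0.0338% at 4 h, 0.613% and 0.0791% at 8 h, and 0.598% and 0.552% at 24 h. At 2 h it was Gm45640, in an intron of the chromatin remodeller gene Chd9, which read 2.45, 3.11 and 3.15 CPM in NT and 1.39, 1.67 and 1.82 in IFT88siRNA (-0.85 ± 0.187, edgeR, adjusted p = 0.0355), a call lost without any 1 replicate number. At 4 h it was Gm42462 in Fbxl5, which read 3.14, 4.70 and 3.57 in NT and 1.62, 1.31 and 2.20 in IFT88siRNA (-1.16 ± 0.217, adjusted p = 0.00609), where Fbxl5 had -0.09 ± 0.0443. That call was lost without replicate 1. At 8 h it was Gm42636, 1492 bases downstream of the zinc finger gene Zscan25 (-1.31 ± 0.315, adjusted p = 0.0419), and at 24 h 4930412F12Rik, which shares exon bases with AW046200 (1.33 ± 0.387, adjusted p = 0.0442), both low in counts and named after their values were seen. The first call was lost without replicate 1 or 2 and the second without any 1 replicate number. The 8 h count rests on 1 library: without IFT88siRNA 8 h replicate 3, 44 of 208 members were lower (median -0.46), against 3.56% of all genes tested. Over all times together 17 members differed (7.14%, against 5.19% of all genes tested), and 44 without that library.

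The share of each library on the members gives the same picture as a sum, and is a description. At 0 h it was 0.05994 to 0.06259% in NT and 0.04937 to 0.05312% in IFT88siRNA, and at 1 h 0.04897 to 0.05046% and 0.03762 to 0.04375%, without overlap at either time. At 2, 4, 8 and 24 h the arms overlapped. The ratio of the means, IFT88siRNA over NT, was 0.841 at 0 h and 0.811 at 1 h by counts and 0.946 and 0.907 by TPM. The TPM sums lean heavily on AA474408, with a mean of 299 TPM on a mean count of 11.06. Gm37416 was next, with 60.5 TPM. The share on 309 sense-intronic genes moved alongside that on the members, with ratios of 0.831 and 0.745. So did the shares on lincRNA genes (0.895 and 0.821) and on 70 histone genes, whose mRNAs mostly lack poly(A) tails (0.88 and 0.726), both without overlap between arms at 0 and 1 h. The histone share stayed lower without overlap at 2, 4 and 8 h (ratios 0.764, 0.735 and 0.855), where the arms overlapped on the members. Within conditions the library with the highest share on the members was also the highest on sense-intronic genes in 10 of 12 conditions, on lincRNA genes in 11 and on histone genes in 4. What part such differences between libraries have in the lower values at 0 and 1 h was not tested.

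**Figure D5:**
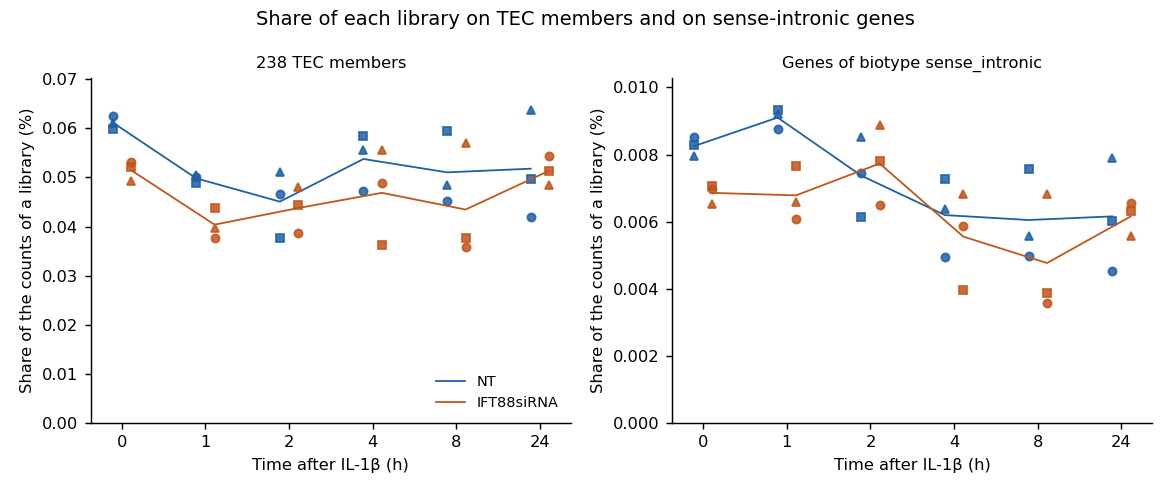
Percent of each library's counts (y axis) on the 238 members (left) and on sense-intronic genes (right) by time of IL-1β (h, evenly spaced categories), with points for libraries and lines for means of NT and IFT88siRNA. On the members the arms separated at 0 h (0.05994 to 0.06259% against 0.04937 to 0.05312%) and 1 h and overlapped from 2 h on.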

How the data were processed

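RNA-seq was made from NT and IFT88siRNA cells, 3 libraries in each of 12 conditions, from polyadenylated RNA. Per the submitters' processing notes, reads were aligned to GRCm38 with HISAT2 2.1.0, and the authors counted them per gene with featureCounts (Subread 1.6.3) and estimated TPM with Salmon 0.9.1. The deposited counts are raw, and the deposited TPM values are scaled for transcript length and library size. The methods give featureCounts' default settings, which do not use strand and leave out reads that overlap exons of more than 1 gene.

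Tests used the counts, scaled by TMM, in edgeR 4.0.16 (R 4.3.3) after its filter on low counts, with a quasi-likelihood fit per arm for times against 0 h, per time for IFT88siRNA against NT, and over all 36 libraries for the difference over time and the response. Values of p were adjusted over all genes tested by Benjamini-Hochberg. A call needs an adjusted p under 0.05 and more than 1.5-fold (in joint tests, at 1 or more times). Position came from GENCODE M21, with a window of 10 kb. Scripts were tested on simulated data.

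Named members were called, had a mean of at least 50 counts over the libraries compared and moved the same way in every same-numbered comparison: the 4 largest rises and falls at each time in NT, the 3 largest at each time between arms, and the 5 highest mean counts. Gm35048, Gm37416, Gm42636, 4930412F12Rik and further times or comparisons of named members were added after their values were seen. Members and lists were chosen with earlier results of these data known. Alternatives were DESeq2 1.42.0, RLE size factors, no filter, no fold threshold, limma 3.58.1 on log2(TPM + 1) or log2(TPM + 0.1) for TPM of 1 or more in 3 libraries, a minimum mean of 50 counts, the replicate number as a block, and leaving out libraries. Total counts were 19337022 to 38304127 per library. Replicates differed beyond sampling noise (chi-square per degree of freedom 1.71 to 10.9).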

Additional observations from a re-analysis of the deposited data

Results flagged for a closer look

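Gm7265, in an intron of Nedd4, moved in opposite directions in the 2 arms at 4 h against 0 h. In NT it read 3.48, 3.64 and 3.66 CPM at 0 h and 3.86, 3.74 and 3.93 at 4 h (mean 3.84), all higher. In IFT88siRNA it read 3.78, 3.86 and 4.32 at 0 h and 3.15, 3.40 and 3.11 at 4 h, all lower. The difference between the arms' changes was -0.42 on the log2 scale (edgeR interaction, unadjusted p = 0.0219, adjusted p = 0.307), which does not pass the correction.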

How the results depend on the processing

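Counts of called members depended on the unit and the library set more than on the scaling. With limma on log2(TPM + 1), 69 (NT) and 58 (IFT88siRNA) members were called over time in place of 139 and 154, and 36, 41, 30, 18 and 11 in NT from 1 h to 24 h in order in place of 81, 86, 49, 42 and 37. Between the arms it called 1 at 0 h and 1 at 1 h, and 0 at 2, 4, 8 and 24 h, with 5 over time and 1 for the response. With a pseudocount of 0.1, 87 were called over time in IFT88siRNA, 41, 23 and 21 in NT at 1, 8 and 24 h, 1, 1, 0, 0, 0 and 0 between arms from 0 to 24 h, and 9 over time. With no TPM filter these were 69 and 55 over time, 36, 44, 27, 17 and 10 in NT, 0 between arms at every time, and 3 over time. The TPM filter and log2(TPM + 1) both act on low values, which most members have.

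Kept to members with a mean of 50 or more counts, 31 and 30 were called over time in NT and IFT88siRNA, 15, 17, 12, 10 and 11 in NT by time, 1, 10, 0, 0, 0 and 0 between arms and 3 over time, since fewer were tested. DESeq2 called 19 in NT at 24 h, and 5, 16, 0, 0 and 0 between arms at 0, 1, 2, 4 and 24 h. With no filter on low counts, 3 members were called between arms at 2 h, 14 at 8 h, 46 over time and 8 for the response. With no fold threshold 28 were called at 0 h. With all 36 libraries in 1 model the arms gave 3, 13, 3 and 8 at 0, 1, 2 and 8 h. For these the cause was not tested.

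Leaving out each replicate number gave 112 to 124 members over time in NT and 114 to 149 in IFT88siRNA, and in NT 57 to 70, 69 to 85, 42 to 46, 27 to 44 and 12 to 45 in the same order. The lowest came without replicate 3 at 8 h and without replicate 1 at 24 h. Between arms the ranges were 3 to 18 at 0 h, 10 to 34 at 1 h, 0 to 3 at 2 h, 0 to 2 at 4 h, 0 to 31 at 8 h and 0 to 3 at 24 h, with 6 to 37 over time and 0 to 2 for the response. Without NT 2 h replicate 2, 5 were called at 2 h and 1 for the response. Without IFT88siRNA 8 h replicate 3, 44 were called at 8 h, 44 over time and 2 for the response. Without these and IFT88siRNA 4 h replicate 2, 5 were called at 2 h, 44 at 8 h, 48 over time and 8 for the response. These 3 libraries were picked after seeing the data.

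Same-numbered NT and IFT88siRNA libraries did not deviate together (correlations -0.20 to 0.35, 5 of 18 over 0.1), so the numbers are not shown to pair them. With the replicate number as a block, 3 were called at 2 h, 4 at 8 h and 0 at 24 h. By position, 37.8% of members with 50 or more counts shared exon bases, 28.9% were in a same-strand intron and 0% had no gene nearby, and with a window of 5 kb 3.4% had none. By summed TPM, a sum that leans heavily on AA474408, the members' ratio, IFT88siRNA over NT, was 0.946 at 0 h and 0.907 at 1 h. Of 822 values of 58 named fold changes under the alternatives, 0 changed direction, 77 were no longer called, 1 was newly called and 744 kept their call. Depth limits most members, whose median mean count was 22.9.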
